A study of Mus musculus with 2 samples.

Results

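The effect of losing MMP-14 on Dlk-positive fetal liver cells was measured on 1 oligonucleotide array read in 2 colours, which is 1 of the 2 arrays in the series. The cells were sorted from mouse livers as positive for Dlk and negative for CD45, CD71 and Ter119, so that blood cells and erythroid cells were gated out. The sample label gives stage E14 and the design text E14.5. RNA came from 100000 cells and 3 livers per genotype. The wild-type RNA was labelled with Cy5 and the MMP-14 knockout RNA with Cy3, per the labels. The sources used here do not give the knockout allele, the strain or the sex of the embryos. All probes of this array were taken, and of the 16387 genes with a name, 12706 gave a detectable reading in each channel, meaning above the mean of the blank spots plus 2 SD.

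MMP-14 is a protease anchored in the cell membrane. It cleaves collagen and other matrix proteins at the cell surface and, together with the inhibitor TIMP-2, activates the secreted protease MMP-2. Dlk1 is a transmembrane protein of fetal liver that marks hepatoblasts, the progenitors of hepatocytes and bile duct cells, and it is also made by some mesothelial and stromal cells. Stellate cells, which lie beside the sinusoids and make matrix, and the mesothelium, which covers the liver, develop next to the hepatoblasts.

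There was no second array and no dye swap. No value therefore has an error between animals, and no test was possible. Genotype and dye cannot be told apart for any single gene. Every ratio below is a log2 ratio of knockout over wild type, normalised for intensity by loess, and genes are described past a fixed size of 2-fold or 1.5-fold. For scale, the SD between different probes of a gene was 0.12 over 139 genes, and 24 repeat spots of each control differed by an SD of 0.04 to 0.09. These spreads are technical only, and they do not cover offsets shared by all spots of a control. The positive control spots had median ratios of 0.26 (readings 3490 and 10182) and -0.44 (10456 and 18586). Sorted cells were also measured in bulk, so fewer cells of a type and less RNA per cell cannot be told apart.

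The channels were read on different scales. Among the 2519 genes with a wild-type reading from 100 to below 200, the knockout reading was a median of 2.33 times the wild-type reading, and the factor was 2.47 for the 804 genes from 500 to below 1000. The factor then shrank to 2.21 for the 87 genes from 4000 to below 8000, whose normalised ratios had a median of -0.14. It fell to 2.01 for the 45 genes from 8000 to below 16000 and to 0.992 for the 11 genes at 28000 or more. All 11 of those had a whole-number reading, which the scanner file holds only for the strongest spots, from 28390 in the wild-type and from 32697 in the knockout channel. For this reason the 65 genes with a wild-type reading of 8000 or more are described apart. Of these, 63 lay below 0 after normalisation.

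**Figure D1:**
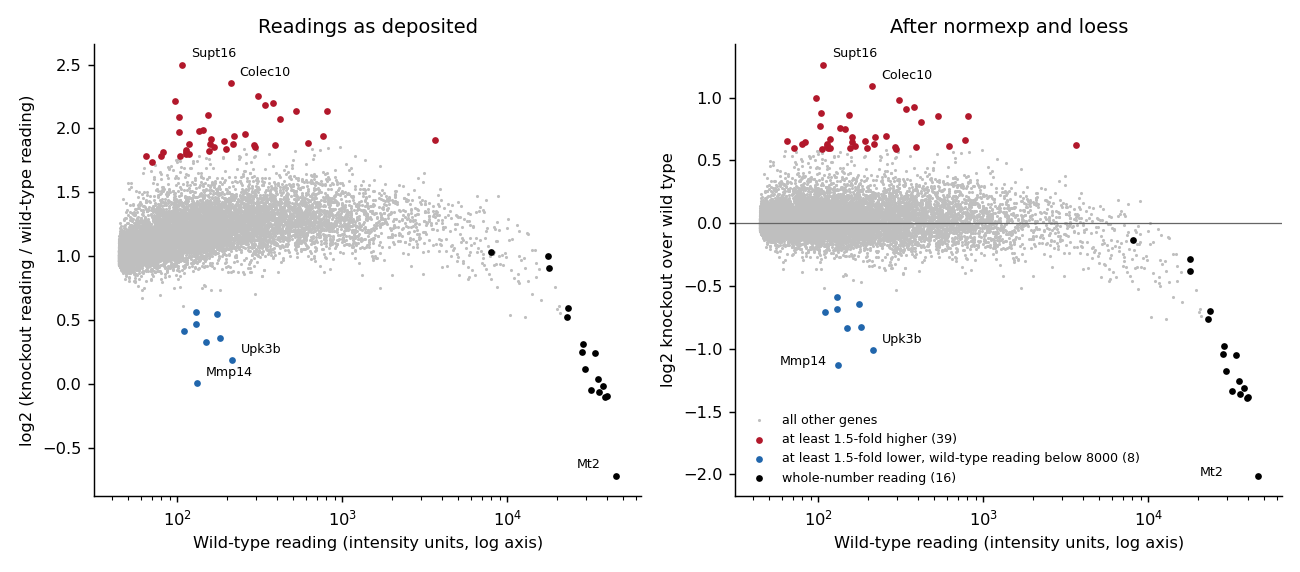
Each point is 1 of the 12706 genes detectable in both channels, with the wild-type reading in intensity units on a log axis. The left panel plots the log2 ratio of the 2 readings and the right panel the log2 ratio after normalisation. Red points are the 39 genes at least 1.5-fold higher, blue points the 8 genes at least 1.5-fold lower with a wild-type reading below 8000, and black points the 16 genes with a whole-number reading. Mmp14 and Upk3b lie below the band of genes of like reading and Supt16 and Colec10 above it, while the band itself bends down at the bright end.

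The wild-type reading of Mmp14 itself was 131 and its knockout reading 132. Its reading ratio of 1.01 was the lowest among the 2519 genes with wild-type readings from 100 to below 200, where the next lowest was 1.26. The normalised ratio was -1.13, a 2.19-fold lower level, and the authors' deposited table gives -2.13. The knockout reading stayed above the detection threshold of 85.1 for that channel, against a blank mean of 80.7. The sources used here do not say whether the probe lies in the deleted part of the gene. With the local background in the correction the Mmp14 ratio was -0.46 relative to all genes, so its size depends on the background correction.

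The other metalloproteinases and their inhibitors had small ratios, but the list was dim, with a median wild-type reading of 50.3. Among all 3907 genes with wild-type readings from 44 to below 60, 0 passed 1.5-fold either way. For such members, staying within 1.5-fold therefore carries little information. Of the 16 members of this list detectable in both channels, Mmp14 was the only one past 1.5-fold, and the other members lay between -0.08 and 0.17. Mmp2, the gelatinase that MMP-14 activates, was read at 226 and 567 and had a ratio of 0.09. The inhibitor gene Timp2 (60.1 and 133) had a ratio of 0.07, and Timp3 (50.3 and 106) one of 0.04. The related membrane-type proteases Mmp15 (-0.08) and Mmp16 (0.02) were dim, with wild-type readings of 56.7 and 50.9 against a threshold of 44.3.

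The 10 detectable genes on each side of Mmp14 on chromosome 14 lay between -0.30 (Slc7a7) and 0.25 (Lrp10), and none passed 1.5-fold. Gene order was taken from RefSeq. Supt16, which encodes a subunit of a histone chaperone, lies on the same chromosome with 13 measured genes between it and Mmp14, and these ranged from -0.30 to 0.23. Supt16 had the highest ratio of all genes, 1.26, with readings of 106 and 602. Its reading ratio of 5.66 compares with 4.29 for the next gene, Fhl1, in the same range of wild-type readings.

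The sorted cells carried the markers of hepatoblasts in both genotypes. Dlk1 was read at 4971 and 11869, with a ratio of -0.03, where the 87 genes from 4000 to below 8000 had a median of -0.14. Hnf4a, a transcription factor of hepatocytes and their progenitors, was read at 879 and 1954, with a ratio of -0.12. Afp (35570 and 36583) and Alb (37881 and 37592), the fetal and adult plasma carriers, had whole-number readings in both channels, so no fold is drawn from them. Of the 25 detectable members of the hepatoblast list, 10 had ratios above 0, against 53.1% of all genes, and 0 passed 1.5-fold upward. The 5 with normalised values past 1.5-fold downward were Alb, Afp, Igf2, H19 and Ahsg, all among the bright genes, and no change is read from them. The other 20 members lay between -0.15 (Cebpa) and 0.13 (Onecut1), among them the transcription factor genes Foxa2 (0.00) and Prox1 (-0.02).

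Bile duct and hepatocyte enzyme genes also stayed within 1.5-fold, but many were dim, with median wild-type readings of 75.3 and 97.9. Among all 2850 genes with wild-type readings from 60 to below 100, 5 were at least 1.5-fold higher and 0 lower. For such members, staying within 1.5-fold therefore carries little information. The 18 detectable bile duct members had a median of -0.02 against 0.01 for all genes. Cldn4, a tight junction claudin, was the lowest at -0.45 (161 and 269). Sox9, an early bile duct transcription factor, was read at 68.5 and 155 and had a ratio of 0.08, and Spp1 one of -0.04. The readings of Krt19, 46.3 and 93.1, were close to both thresholds. The 27 hepatocyte enzymes had a median of 0.02, with extremes of -0.29 (Hsd17b2) and 0.35 (Cyp3a16). Met, the receptor of hepatocyte growth factor, had a ratio of -0.14, and Fgfr2 one of 0.26. Egfr, the receptor of epidermal growth factor, was read at 70.6 and 235 and had a ratio of 0.59. The authors' deposited table gives 1.10 for it. The other 18 members of the EGF receptor list lay between -0.16 (Adam17) and 0.30 (Dusp6). That list was dim, with a median wild-type reading of 55.2.

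Most markers of the blood cells that the sort removed were dim or not detectable, and CD71 was an exception. Ptprc, which encodes CD45, was read at 43.8 and 88.9, below the threshold of the wild-type and just above that of the knockout channel. Tfrc, which encodes CD71, was detectable at 196 and 518, with a ratio of 0.17. The knockout channel detected more of the 16387 named genes in general: 1204 were detectable in it only, and 68 in the wild-type channel only. Of 24 macrophage genes, the wild-type channel detected 12 and the knockout channel 16, and neither detected Adgre1. The summed reading of the macrophage genes above blank was 0.0041% of the wild-type and 0.0050% of the knockout signal of all genes. Such shares do not compare the channels, because the brightest genes weigh on each total. Plasma proteins held 8.10% of the wild-type and 5.19% of the knockout signal. Hepatocyte enzymes, with a median ratio of 0.02, held 0.268% and 0.292%. Of 28 endothelial genes, the wild-type channel detected 21 and the knockout channel 24, with 0.019% and 0.023% of the signal. Cdh5 was detectable in neither channel and Pecam1 in the knockout channel only. The 20 endothelial members detectable in both had a median of -0.03, with Plvap highest at 0.39. Erythroid (-0.01), macrophage (0.00) and lymphoid and stem cell (0.02) medians lay near that of all genes. The 11 detectable neutrophil granule genes had a median of 0.10, and 0.70 in the authors' deposited table. Of these, 8 were above 0, against 53.1% of all genes, and none passed 1.5-fold. The highest of them, S100a9 (52.7 and 157), Mpo (58.2 and 160), Prtn3 (51.6 and 136) and S100a8 (64.8 and 174), had ratios from 0.32 to 0.49 at readings near the thresholds. Among the 3907 genes with wild-type readings from 44 to below 60, S100a9 had the highest reading ratio, 2.98, and 0 passed 1.5-fold. Of 11 megakaryocyte genes, 8 were above 0, with a median of 0.03 and Pf4 highest at 0.41 (58.6 and 166). The neutrophil list held 0.0058% of the wild-type and 0.0082% of the knockout signal, and the megakaryocyte list 0.0030% and 0.0049%. Under 1 of the 8 scalings each of these medians turned negative relative to all genes, at -0.16 and -0.28. The part of these cells in the results below was not tested.

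At the size of 2-fold, 2 genes were higher (0.0157% of the genes measured), Supt16 and Colec10, and 12 were lower (0.0944%). Of the 12, 10 had a whole-number reading, and Mmp14 and Upk3b were the others. This split depends on the scaling. Median centring in place of loess gave 155 higher and 1 lower, but it also moved the median of all genes to 0.29, and relative to that median the split was 18 and 2. Counted as they stand, the local background 169 and 9, blank subtraction before loess 61 and 133, and the values in the authors' deposited table gave 160 higher and 34 lower. Of the 194 genes past 2-fold in the authors' deposited table, 157 had a wild-type reading below 60. For the 5884 genes with readings from 100 to below 8000, the authors' deposited table held 6 higher and 7 lower, and these 13 genes were also past 1.5-fold in the same direction after loess.

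At the size of 1.5-fold, 39 genes were higher (0.307%) and 28 lower (0.22%), and 20 of the 28 were bright genes. The 39 higher genes had wild-type readings from 64.8 to 3656. Relative to the median of each scaling, all 39 stayed above 0 in the 7 other scalings run, and between 38 and 39 stayed past 1.5-fold in 6 of them. With the local background 20 of the 39 did.

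Of the 39 higher genes, 9 are in the list of stellate cell and fibroblast genes. With the lists of smooth muscle, collagen, matrix glycoproteins and positional and mesenchymal transcription factors, the number was 15. Together these lists hold 133 of the genes measured. These lists were written with earlier results of these data known, so the counts are a description and no support. Without the members already shown there, 1 of 27 stellate, 0 of 16 smooth muscle, 2 of 33 collagen and 1 of 34 matrix glycoprotein members passed 1.5-fold, and the medians were 0.26, 0.12, 0.05 and 0.09. Colec10, a collectin of stellate cells, was read at 211 and 1077 and had a ratio of 1.09. Its reading ratio of 5.11 was the highest among the 1925 genes with readings from 200 to below 500, and Igfbp3 followed at 4.76. The related collectin gene Colec11 was read at 340.0 and 1544 (0.91). Igfbp3 (308 and 1469) and Igfbp7 (379 and 1741), which encode secreted proteins that bind insulin-like growth factors or related ligands, had ratios of 0.98 and 0.93. Lhx2, a transcription factor of stellate cells, was read at 420 and 1770 (0.80). Tcf21, a mesenchymal transcription factor, had a ratio of 0.63 and Angptl6, an angiopoietin-like secreted factor, one of 0.75.

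The stellate cell and fibroblast list as a whole lay above the other genes. Of its 35 detectable members, 33 were above 0, against 53.1% of all genes, and 9 were at least 1.5-fold higher and 0 lower. The median was 0.37, and between 0.31 and 0.62 over the 8 scalings relative to all genes. Without the members already shown, 27 were left, of which 25 were above 0 but only 1 was past 1.5-fold (Tcf21, 0.63), with a median of 0.26. Among these were the stellate retinol enzyme gene Lrat at 0.53 (61.9 and 194), the intermediate filament gene Des at 0.46 (79.4 and 241) and the platelet-derived growth factor receptor genes Pdgfra (0.43) and Pdgfrb (0.34). The 2 members below 0 were Igfbp5 (-0.09) and Col1a1 (-0.04). Col1a1 was read at 233 and 534, while Col3a1, another fibrillar collagen of the same cells, was read at 3126 and 9837 (0.37).

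Smooth muscle and contractile genes were above 0 in 14 of 17 members, against 53.1% of all genes, with a median of 0.13. Tagln, an actin-binding protein of smooth muscle, was the only one past 1.5-fold, at 0.68 (160 and 608), and the smooth muscle actin gene Acta2 stood at 0.37. Kcnj8 (0.67) and Abcc9 (0.60), which encode the subunits of a potassium channel found in pericytes and vascular smooth muscle, and the endothelin receptor gene Ednrb (0.65) were in no list and also passed 1.5-fold.

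Several matrix genes were at least 1.5-fold higher, and most others were not. Dcn, a small proteoglycan that binds collagen, was read at 810.0 and 3557 (0.86), the highest reading ratio among the 804 genes from 500 to below 1000. The related proteoglycan gene Lum was read at 768 and 2944 (0.66). Postn (0.62) and Tnc (0.59), matrix proteins of developing and remodelling tissue, completed the 4 of 37 matrix glycoprotein members past 1.5-fold. The median of that list was 0.13, with 26 of 37 members above 0, against 53.1% of all genes. Fn1 (-0.06) and Eln (-0.06), which encode fibronectin and elastin, were below 0. Of the 34 collagen chains and processing enzymes, 25 were above 0 and 3 past 1.5-fold: the basement membrane chain Col4a2 (0.65), the fibrillar chain Col5a1 (0.61) and Col14a1 (0.60). The median of the list was 0.05. P4hb, an enzyme of collagen folding, was the lowest at -0.28. P3h2 (0.65), a prolyl hydroxylase of collagen, was in no list.

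The secreted and signalling genes among the 39 came from several families. Adm, a vasodilator peptide gene that responds to hypoxia, was read at 96.6 and 447, with a ratio of 0.999, just under 2-fold, and 1.41 in the authors' deposited table. The other 17 detectable hypoxia genes lay between -0.09 (Egln3) and 0.34 (P4ha2). Tnfrsf11b, a decoy receptor known from bone, was read at 103 and 438 (0.88). Adamts1, a matrix protease, had a ratio of 0.70, Rspo3, a ligand that strengthens Wnt signals, one of 0.66, Sema3a, a guidance factor, one of 0.63, and Ccl2, a chemokine, one of 0.63. The lists of Wnt (0.00), TGF-beta and BMP (0.01), Notch (0.02) and integrin genes (0.02) had medians near that of all genes. Their median wild-type readings were low, at 65.4, 77.3, 54.3 and 58.7 against a threshold of 44.3. A median near 0 therefore carries little information for these lists. In the authors' deposited table their medians were -0.02, 0.03, 0.19 and 0.11. Among Notch genes Hes1 (0.38) and Notch1 (0.35) were the highest. The 8 detectable Hedgehog genes had a median of 0.15, from -0.35 (Gas1) to 0.28 (Hhip).

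The remaining genes past 1.5-fold were Fhl1 (0.86), S100a10 (0.86), Lrrn3 (0.77), Ehd3 (0.76), Crip2 (0.69), Itm2a (0.62), Naaa (0.61), Gpx8 (0.61), Hs6st2 (0.60), Ccdc80 (0.60), Metrnl (0.59) and Smim11 (0.59). Itm2a, a membrane protein gene of developing mesenchyme, was the brightest of the 39, at 3656 and 13708. Its reading ratio of 3.75 was the highest of the 171 genes from 2000 to below 4000.

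**Figure D2:**
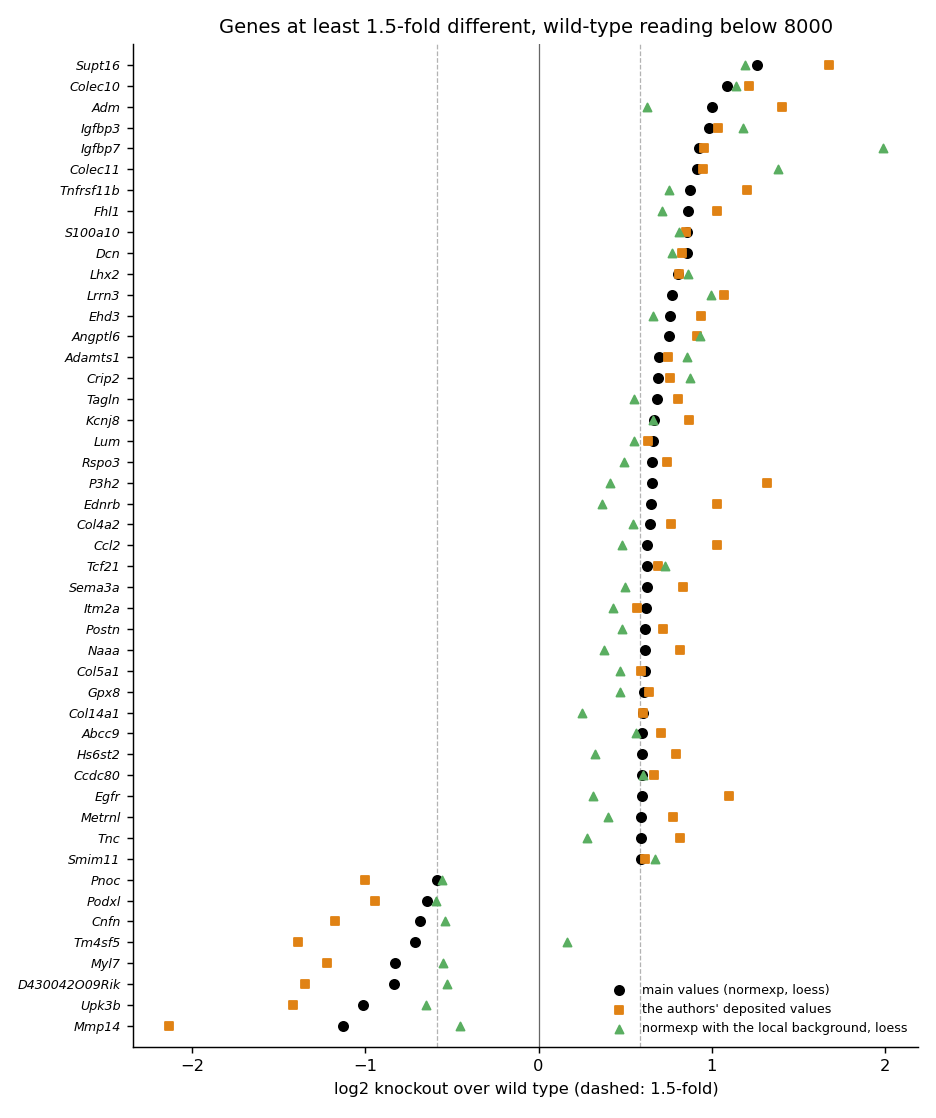
The plot shows the log2 ratio of knockout over wild type for the 39 genes at least 1.5-fold higher and the 8 at least 1.5-fold lower with a wild-type reading below 8000. Black circles are the main values, orange squares the authors' deposited values and green triangles the values with the local background, and dashed lines mark 1.5-fold. The triangle of Tm4sf5, at 0.17, is the only mark on the other side of 0 from its main value.

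Outside the bright genes, 8 genes were at least 1.5-fold lower, with wild-type readings from 110 to 214. After Mmp14 came Upk3b, a uroplakin of mesothelium, read at 214 and 244 with a ratio of -1.01. Its reading ratio of 1.14 was the lowest among the 1925 genes of its range, where the next lowest was 1.63 (Mthfd2). Podxl, a sialomucin of mesothelium and podocytes, was read at 175 and 257 (-0.64). Myl7, a myosin light chain of heart atria, was read at 181 and 232 (-0.83). The others were D430042O09Rik (-0.83), Tm4sf5 (-0.71), Cnfn (-0.68) and Pnoc (-0.59). With the local background Tm4sf5 turned to 0.16 relative to all genes, and Mmp14, D430042O09Rik, Myl7, Cnfn and Pnoc were within 1.5-fold.

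Most mesothelial genes were on the other side of 0 from the stellate genes. Of the 19 detectable members of that list, 16 were below 0 and 3 above, where 53.1% of all genes were above 0. In that list 2 were at least 1.5-fold lower (Upk3b and Podxl) and 0 higher. The median was -0.14, and between -0.39 and -0.07 over the 8 scalings relative to all genes. This list too was written with earlier results of these data known, so its counts and median are a description and no support. They include Upk3b and Podxl. Rspo1 (79.1 and 128) stood at -0.39 and Upk1b, another uroplakin gene (60.8 and 101), at -0.31. Msln and Krt19, classical mesothelial markers, stood at -0.14 and -0.01, and Wt1, a mesothelial transcription factor, at 0.02. Alcam (0.42) and Crip1 (0.20) were above 0. Other cells also make these genes, as they do Podxl, Krt19 and Dlk1 among the members below 0. The mesothelial signal was 0.19% of the wild-type and 0.21% of the knockout channel, most of it from the sort marker Dlk1, and 0.064% and 0.073% without Dlk1. The stellate list held 0.30% and 0.48%. As for the blood cell lists, these shares do not compare the channels.

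**Figure D3:**
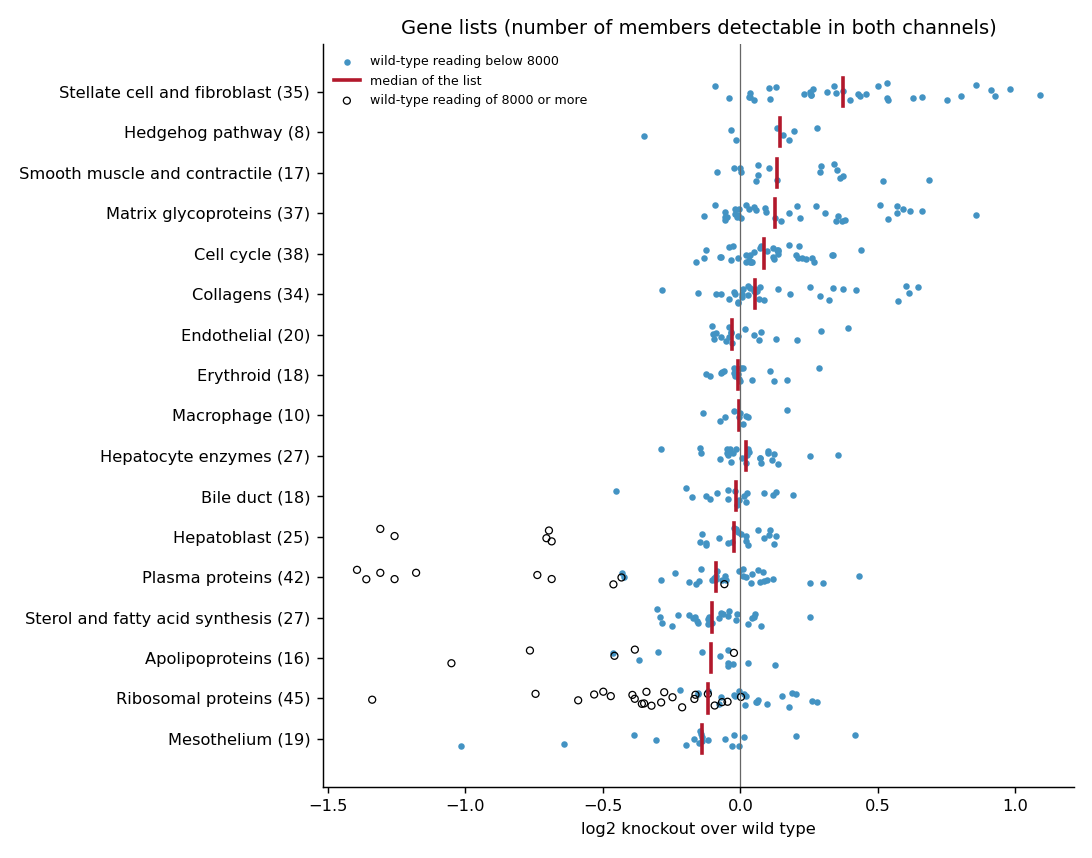
Each dot is the log2 ratio of knockout over wild type of 1 gene in 17 of the 48 lists, with the number of members detectable in both channels in brackets and the median as a red bar. Open circles are genes with a wild-type reading of 8000 or more. The stellate list has its median at 0.37 and the mesothelial list at -0.14, and the low members of the hepatoblast, plasma protein, apolipoprotein and ribosomal lists are mostly open circles.

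Of the 48 lists, 4 had a median of at least 0.1, 4 one of -0.1 or less, and 40 lay between. Beside the mesothelium, the low lists were ribosomal proteins (-0.12), apolipoproteins (-0.11) and sterol and fatty acid synthesis (-0.10). Without genes at 8000 or more the ribosomal median was 0.011 relative to all genes, and 23 of its 45 members were that bright. Under median centring the ribosomal (0.19), apolipoprotein (0.087) and sterol (0.25) medians turned positive relative to all genes, as did the sterol median with the local background (0.061). No direction is therefore given for these 3 lists. Within sterol synthesis none of 27 members passed 1.5-fold, and the lowest were Mvd (-0.30), Sqle (-0.29) and Fdft1 (-0.29).

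Cell cycle genes were above 0 in 29 of 38 members, against 53.1% of all genes, with a median of 0.09 and none past 1.5-fold. The highest were Cenpe (0.44), a kinesin of the centromere, Pcna (0.34) and Mcm3 (0.33), while Mcm2 (-0.16) and Cdk4 (-0.13) were the lowest with Birc5 (-0.13). Immediate early and dissociation stress genes, which respond to handling of tissue, had a median of 0.08, with 17 of 24 above 0. Hspb1 (255 and 912) and Dusp1 (241 and 824) were the highest at 0.58 and 0.52. Their part in the other results was not tested. In the list of ER chaperones and amino acid stress, the median of 27 members was -0.02. The serine and folate enzymes Mthfd2 (295 and 481) and Psat1 (5774 and 10215) stood at -0.53 and -0.46, and Asns at -0.31. Psat1 lies in the range from 4000 to below 8000, where the normalised ratios of 87 genes had a median of -0.14. Its reading ratio of 1.77 was the lowest of that range.

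Among the 65 bright genes, 20 were at least 1.5-fold lower and 0 higher, in a range where the reading ratio of all genes shrank. The 65 included 27 ribosomal protein genes, 23 of them in the list used here, with 10 plasma protein genes and 5 apolipoprotein genes. Where only the knockout channel had a whole-number reading, the normalised ratios were -0.76 for Apoa1, -0.70 for H19, -0.38 for Apoe, -0.29 for Rps18 and -0.13 for H2ac4, in which 1 of its probes was read so. These values cannot be told apart from the bend at the bright end. Below the whole-number range, Ftl1, the ferritin light chain, was read at 12846 and 18546 (-0.76) and Rplp1 at 10435 and 15224 (-0.74). Their reading ratios of 1.44 and 1.46 were the lowest of the 45 genes from 8000 to below 16000, which had a median of 2.01. Rbp4, the plasma retinol carrier (20835 and 30657), Igf2, a fetal growth factor (20119 and 30286), Ahsg (20479 and 31241) and Prdx1 (16067 and 25419) followed at -0.74, -0.70, -0.69 and -0.63.

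Mt2, a metallothionein that binds zinc and copper, had the lowest reading ratio of all named genes. It had the highest wild-type reading of all genes, 45868, and a knockout reading of 28002, a reading ratio of 0.610 where the next lowest of any gene was 0.936 (Trf). The 18 other genes with knockout readings from 24000 to below 32000 had wild-type readings with a median of 14453. The highest of them were 32199 (Rpl41, itself a whole-number reading) and 20835 (Rbp4). That window was set around the knockout reading of Mt2. The normalised value of -2.01 rests on the end of the loess curve and is given without a fold. Mt1, its neighbour gene, was read at 40017 and 37669, whole numbers in both channels, so no fold can be given. Trf, the iron carrier transferrin, was likewise read as whole numbers, at 39329 and 36806. The dim metallothionein gene Mt3 had a ratio of 0.02, and Slc30a1, a zinc exporter gene that responds to zinc, was read at 140 and 278 (-0.19).

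**Figure D4:**
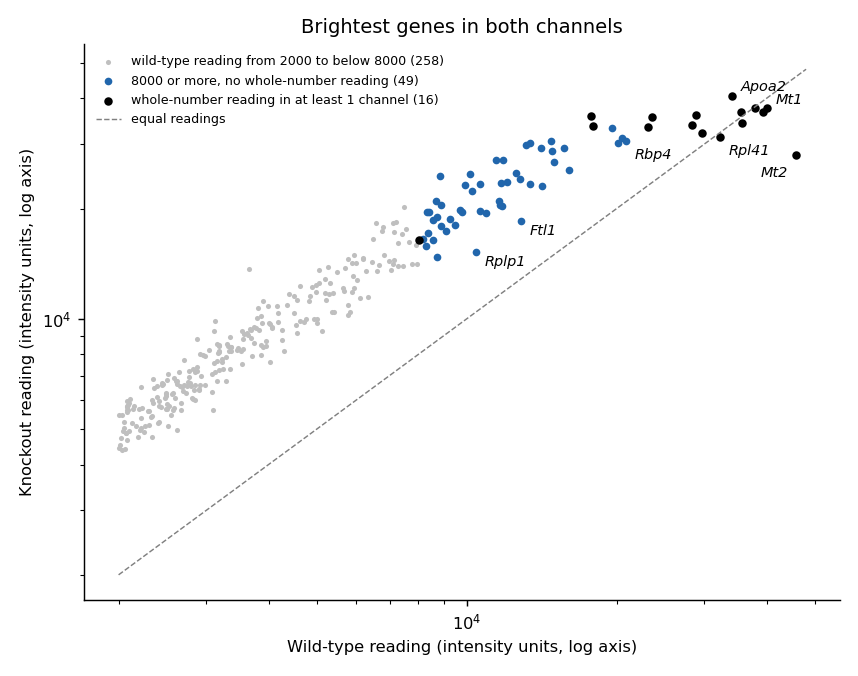
Knockout reading against wild-type reading, both in intensity units on log axes, for the 65 genes with a wild-type reading of 8000 or more and the 258 genes from 2000 to below 8000. Blue points have no whole-number reading, black points have one in at least 1 channel, and the dashed line marks equal readings. The readings bend toward the dashed line at the bright end, and Mt2 lies farthest below it.

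The promoters of Mt1 and Mt2 are shown because these are the metal-responsive genes at the top of the range. Each covers 250 bases before to 50 bases after the gene start, from RefSeq, build GRCm38.p6, on the plus strand, at chr8:94178839-94179138 for Mt1 and chr8:94172368-94172667 for Mt2. Capitals mark matches to TGCACNC or TGCGCNC, the forms of the metal response element core, on either strand, and overlapping matches would be merged. Mt1 held 3 matches and Mt2 held 4. Of 32851 RefSeq promoters of this length, 25.7% held at least 1 match, 1.97% at least 3 and 0.517% at least 4. A match is a description of letters and says nothing about binding.
Mt1: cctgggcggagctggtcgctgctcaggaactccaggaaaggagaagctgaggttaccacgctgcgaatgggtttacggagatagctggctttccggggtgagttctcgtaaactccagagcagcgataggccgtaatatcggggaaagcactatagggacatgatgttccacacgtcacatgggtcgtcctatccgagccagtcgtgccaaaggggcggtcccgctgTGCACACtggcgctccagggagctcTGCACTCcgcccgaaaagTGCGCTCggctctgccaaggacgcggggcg
Mt2: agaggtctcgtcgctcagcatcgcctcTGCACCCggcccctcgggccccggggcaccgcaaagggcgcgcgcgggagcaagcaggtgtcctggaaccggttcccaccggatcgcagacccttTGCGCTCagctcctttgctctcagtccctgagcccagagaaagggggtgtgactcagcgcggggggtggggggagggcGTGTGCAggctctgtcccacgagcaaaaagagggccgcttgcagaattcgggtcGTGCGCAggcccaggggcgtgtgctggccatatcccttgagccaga

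Among the genes near the detection limit, Kdm5d, a histone demethylase gene on the Y chromosome, was read at 61.1 and 97.6. Its reading ratio of 1.60 was the lowest of the 2850 genes from 60 to below 100. The normalised ratio was -0.36 and the authors' deposited table gives -1.50. It was the only one of 3 Y-linked genes on the array detectable in both channels. Kdm6a (193 and 578), Eif2s3x (149 and 396) and Ddx3x (788 and 2126), X-linked genes known to escape X inactivation and chosen after their values were seen, had ratios of 0.35, 0.20 and 0.16. The median of the 389 X-linked genes was 0.01. The sources used here do not give the number of male and female embryos in each pool, whose part in the results was not tested.

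Genes detectable in 1 channel gave no large bound. There were 1204 in the knockout channel only and 68 in the wild-type channel only, and the largest bounds were at least 1.15-fold higher (Lzts1) and at least 1.14-fold lower (Cd2). Among the 6842 probes with no gene name here, 4482 were detectable in both channels, 1 was at least 2-fold higher and 4 were lower. The higher one, M400011042, was read at 479 and 2722 (1.23). Of the lower ones, M400010846 was read at 387 and 214 (-2.10), a lower reading in the knockout at the middle of the range, and M400002945 at 110.1 and 87.0 (-1.46). The other 2 had whole-number readings. Probes with no gene name are left out of the ranks given above, which cover named genes only.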

How the data were processed

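RNA was amplified by an amino allyl method and then dye-coupled, per the labels' protocols. The deposited scanner file holds intensity readings of both channels, which the file headers show to be combined from several scanner gains and not normalised. The log2 ratios in the authors' deposited table followed blank-subtracted, median-centred ratios of knockout over wild type closely (Pearson 1.00 across probes, largest difference 0.138, column median 7.21e-07), so their scale, centring and direction are known.

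Main values came from limma 3.58.1 in R 4.3.3: normexp with an offset of 50 on the readings alone, then loess with span 0.3 and control spots at weight 0. The local background was left out because it followed the spot (Spearman 0.921 and 0.967 in the 2 channels). The offset shrinks the ratios of dim genes. Detection used the blank mean plus 2 SD after 5% of blank spots was trimmed at each end (44.3 and 85.1). The 4 quality-flagged probes were left out, and probes of a gene were averaged. Symbols came from the platform annotation, updated with RefSeq (GRCm38.p6): 16631 of 23473 probes had 1 symbol. The files name no build. The normalisation was tested on simulated data. Known folds were placed only in genes with wild-type readings above that of Mmp14 and below 8000. Changes in dimmer genes, Mmp14 among them, and in the bright genes were therefore not covered.

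Named genes were the 15 highest and 15 lowest genes from the 25th percentile of intensity upward, without whole-number readings, whole-number genes past 2-fold, list members past 1.5-fold or else up to 4 extremes, the 6 largest in each of 4 equal bands of intensity, and genes fixed by name. Names outside this rule were chosen after their values were seen. The members and the 48 lists were chosen with earlier results of these data known. The precision is limited by there being 1 array. Alternatives were median centring, a loess span of 0.6, whole-number readings at weight 0, local background, blank subtraction, the deposited values, an offset of 16, a stricter detection limit, and leaving out dim, whole-number or bright genes. The other array of the series is not analysed here.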

Additional observations from a re-analysis of the deposited data

How the results depend on the processing

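No paired analysis was possible because there is 1 array. Median centring moved the median of all genes from 0.01 to 0.29, so gene and list values under other settings are given relative to that median, and counts as they stand. Relative to it, median centring gave 18 higher and 2 lower at 2-fold and 483 to 232 at 1.5-fold. The Mmp14 log2 ratio was -1.13 and stayed below 0 in every alternative, at -0.46 with the local background, -2.09 with blank subtraction, -2.13 in the deposited values and -1.57 with an offset of 16. Genes at least 2-fold higher numbered 2, and 155 with median centring, 169 with the local background, 61 with blank subtraction, 160 in the deposited values, 5 with an offset of 16, and 6 in the deposited values of genes read from 100 to below 8000. Genes at least 2-fold lower numbered 12, and 1, 133 and 34 with median centring, blank subtraction and the deposited values, 2 without whole-number readings, 2 without readings of 8000 or more, and 7 in the deposited values of the same middle range. The last 2 exclusions were added after seeing the data, and fewer genes were tested under them. At 1.5-fold the split was 39 to 28, against 3158 to 5 with median centring, 488 to 31 with the local background, 362 to 422 with blank subtraction and 684 to 155 in the deposited values. For single genes only Tm4sf5 turned direction past 1.5-fold (0.16, local background). Among lists with a median past 0.1, median centring turned the apolipoproteins (0.087), sterol (0.25) and ribosomal genes (0.19), the local background turned sterol (0.061), and leaving out bright genes turned ribosomal genes (0.011). Except for the last, whose construction removes the bright genes, the cause was not tested. Signal over background limits the dim genes: the deposited ratios spread by a robust SD of 0.36 for wild-type readings from 44 to below 60, against 0.15 from 500 to below 1000.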
